A study of Mus musculus with 22 samples.

Results

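Solute carriers are membrane proteins that move nutrients, ions, nucleosides, vitamins and metals across the plasma membrane and across the membranes of lysosomes, Golgi and endoplasmic reticulum. They are numbered by family, and a family usually handles 1 class of substrate, so that Slc2 carries hexoses, Slc16 monocarboxylates such as lactate, Slc39 and Slc30 zinc, and Slc35 the nucleotide sugars used in glycosylation. In lymphocytes that grow and divide, carriers of amino acids, glucose and lactate are known for supplying the substrates of growth and clearing its products. The genes described here are those whose symbol names a solute carrier outside the mitochondrial Slc25 family and whose probe set exceeded a log2 intensity of 4 on at least 4 of the 22 arrays. This left 102 probe sets of 78 genes, out of 354 probe sets of 229 such genes on the array and 6437 genes tested in all. Each gene was represented by the passing probe set of highest mean. The symbols of Slc9a3r1 and Slc4a1ap name adaptor proteins, which are not transporters, and neither was called in any comparison (limma; none at an unadjusted p under 0.05). The other 2 probe sets of Slc9a3r1 were called lower in malignant than premalignant cells (log2 change -0.49 and -0.59, adjusted p = 0.0302 and 0.00305).

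The arrays are Affymetrix MOE430A, hybridised with RNA of B cells from C57Bl/6 mice. The 4 wild type and 5 premalignant samples came from littermates aged 4 to 6 weeks, the latter carrying the Eμ-Myc transgene, in which an immunoglobulin heavy chain enhancer drives Myc in the B lineage. The 13 malignant samples were lymphomas of 13 Eμ-Myc mice, whose labels carry the same age of 4 to 6 weeks, although the series' design text gives it for the littermates only. All samples were taken on magnetic beads against B220 or IgM from bone marrow or spleen. The titles of the wild type samples read B220+, and those of the premalignant and malignant samples name no antibody. A difference in selection between wild type and the other groups can therefore not be told apart from the stage. Beyond these titles, the labels do not tie a tissue or antibody to a single array. Those of the wild type and premalignant samples call them biological replicates without naming separate mice, so that their p-values measure the spread between these samples, which may be technical. In bulk RNA, fewer cells of a type and less RNA per cell cannot be told apart.

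The number of arrays limits the precision of all values. The B cell markers Cd79a and Cd79b were well above the filter level on all 22 arrays, and the probe set of Pax5 was below it on all of them. The summed intensity of 7 B cell markers was 21520 to 26670 in wild type, 15330 to 20630 in premalignant and 3625 to 9488 in malignant arrays. As a sign of RNA quality, beta-actin read higher at its 3′ than at its 5′ end, by 0.77 ± 0.095 log2 units in wild type, 0.70 ± 0.085 in premalignant and 1.93 ± 0.37 in malignant arrays (SD, n = 4, 5 and 13), with no overlap between the lymphomas and the rest. The summed intensity of 7 stromal and endothelial markers was 255.7 to 291.2 in wild type, 133.2 to 186.5 in premalignant and 354.6 to 3897 in malignant arrays, and of these Col1a2, Col3a1, Sparc and Bgn exceeded the filter level on every lymphoma array and no other. These values moved with every difference of the lymphomas given here, and their part in it was not tested. Wild type replicate 2 and premalignant replicate 1 correlated least with the other arrays of their groups (mean r = 0.956 and 0.938).

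The 78 genes were not equally well measured. 46 of them exceeded the filter level on all 22 arrays. 5 had no wild type array above it (Slc11a2, Slc19a2, Slc37a3, Slc39a14 and Slc7a7), 3 no premalignant array (Slc19a2, Slc37a2 and Slc39a14) and 3 no malignant array (Slc23a2, Slc4a1 and Slc66a1), so that these passed through the groups where they are high. Just inside the filter, on 4 arrays, were Slc17a2, Slc19a2, Slc37a2, Slc37a3 and Slc4a1, with highest values from 4.34 to 10.41. Just outside, on 3 arrays, were Slc46a3 (highest value 5.06) and Slc39a3 (4.71). Of the 151 genes that did not pass, 135 were at or below the level on all 22 arrays. Among these were the cationic amino acid carrier Slc7a1 (highest value 2.45), the cystine carrier Slc7a11 (2.44), the lactate exporter Slc16a3 (3.03) and the nucleoside carrier Slc29a2 (3.31). Where a group mean was below the filter level, the level took its place in the fold, which is then written as at least N-fold.

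In premalignant against wild type cells, 19 of the 78 genes were called at a limma adjusted p under 0.05 (24.4%, beside 26.8% of all genes tested). 9 were higher and 10 lower (11.5% and 12.8%), beside 12.7% and 14.1% of all genes, and the median log2 change was -0.157, beside -0.0535. The 2 groups did not overlap for 7 genes that were higher and 9 that were lower, beside 11.2% and 13% of all genes. In malignant against premalignant cells 23 genes were called (29.5%, beside 42.1%). 20 were higher and 3 lower (25.6% and 3.85%), beside 24.8% and 17.3% of all genes, with a median of 0.124 beside 0.0889. Here 7 genes did not overlap upward and 1 downward, beside 6.28% and 5.93%. In malignant against wild type cells 41 genes were called (52.6%, beside 61.5%). 20 were higher and 21 lower (25.6% and 26.9%), beside 31.8% and 29.7%, with a median of -0.0439 beside 0.0408, and 12 and 8 did not overlap, beside 18.3% and 15.5%. The shares of rises were thus close to or below those of all genes at each step. With the filter in place, the share of falls from premalignant to malignant cells was below that of all genes, a difference that was not tested.

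The counts of falls depended on single arrays and on scaling. The 10 genes lower in premalignant cells became 5 or 6 without any 1 of wild type replicates 1, 2 and 3 and premalignant replicates 3, 4 and 5. Without these arrays the share of all genes called lower also went down, from 14.1% to between 10.5% and 12%. The 3 genes lower in lymphomas than in premalignant cells became 7 without premalignant replicate 1, where the share of all genes was 16.7%, beside 17.3% with it. When arrays were centred on their hybridisation spikes, the median change over all genes became 0.204, 0.225 and 0.435 in the 3 comparisons, with 6 higher and 0 lower, 15 higher and 1 lower, and 21 higher and 4 lower solute carriers. Of all genes, 7.07% were then higher and 1.63% lower, 18.8% and 8.73%, and 36.5% and 12.2%. At an unadjusted p under 0.05 limma then gave 1 lower solute carrier in the first comparison, and the adjusted p of the 10 falls ran from 0.225 to 0.748. The 4 that were still called lower in lymphomas than in wild type cells were Slc15a4, Slc2a1, Slc40a1 and Slc4a1. Centring on the median gave 17 higher and 6 lower from premalignant to malignant cells, beside 22.3% and 19.1% of all genes.

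**Figure D1:**
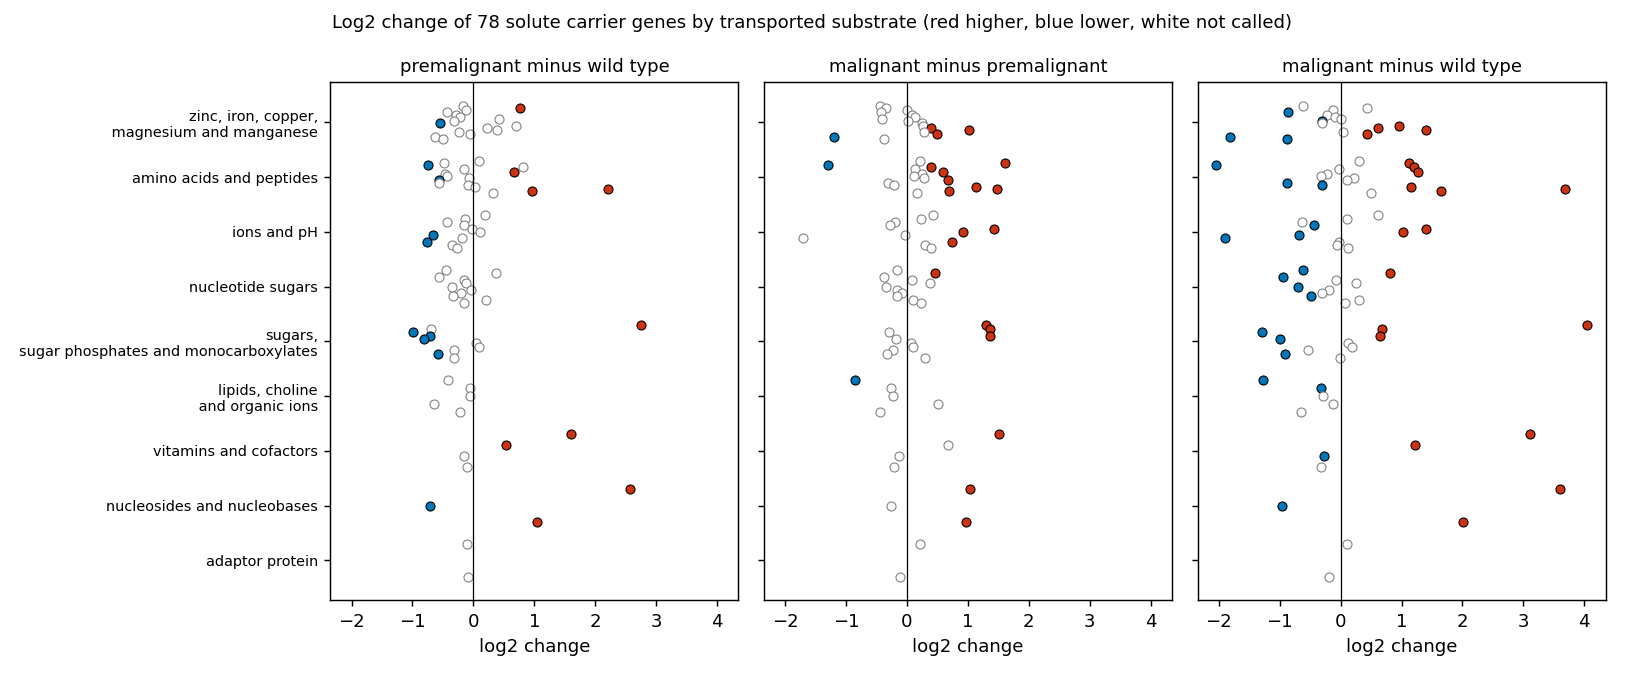
Log2 change of each of the 78 genes (x axis, log2 units) in the 3 comparisons (panels), grouped on the y axis by the substrate of the family. Each point is a gene, red where it was called higher, blue where called lower and white where not called. In malignant against wild type cells the points farthest right are Slc16a1, Slc7a5, Slc29a1 and Slc19a1.

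The first 2 comparisons share the premalignant arrays, so that their calls are set side by side and no overlap between them is read as a result. 7 genes were called higher at both steps, namely Slc7a5, Slc7a6, Slc1a5, Slc16a1, Slc19a1, Slc29a1 and Slc43a3, which carry amino acids, lactate, folate and nucleosides or nucleobases. 3 were lower in premalignant and higher in malignant cells (Slc2a3, Slc3a2 and Slc4a2), 1 was lower at both steps (Slc15a4) and 10 were higher at the second step alone. 47 were called at neither step.

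**Figure D2:**
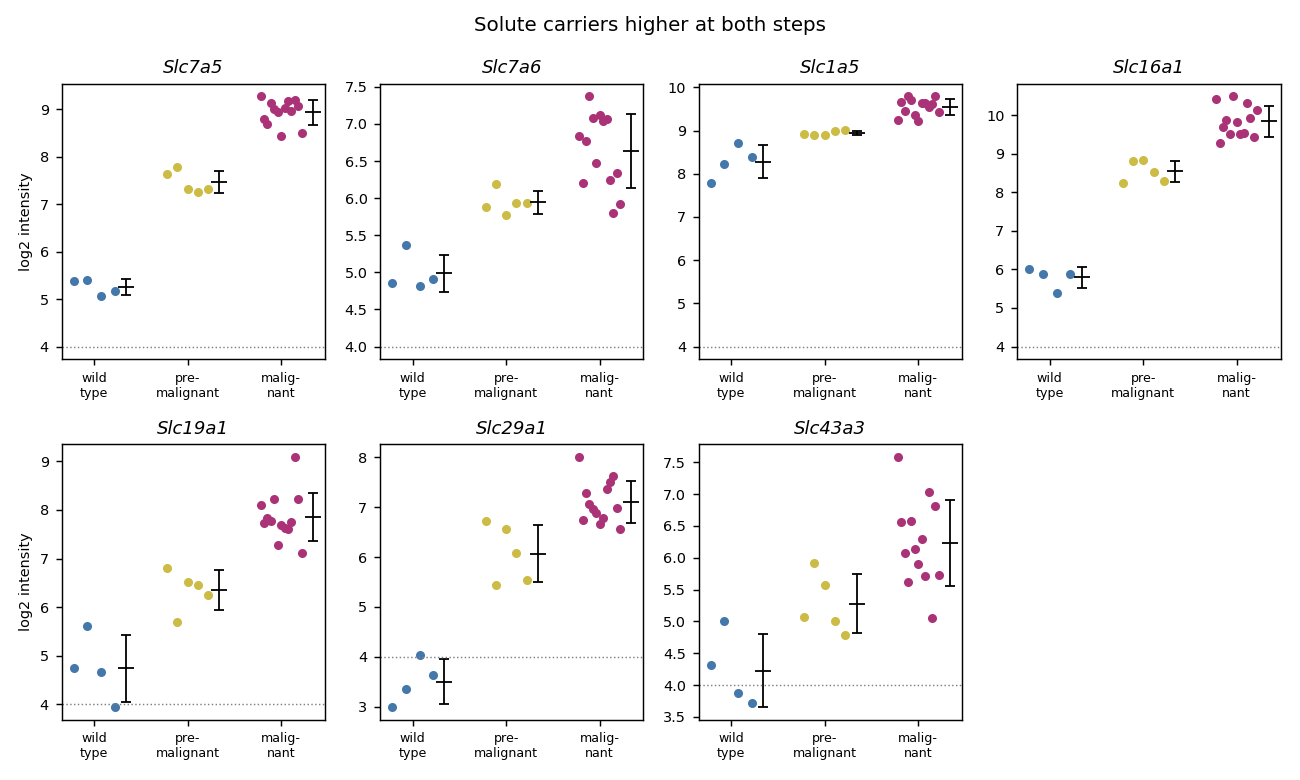
Log2 intensity (y axis) of the 7 solute carriers called higher at both steps in wild type (blue, n = 4), premalignant (yellow, n = 5) and malignant (purple, n = 13) arrays. Points are arrays, the bars beside them the mean and SD, and the dotted line the filter level of 4. Slc7a5, Slc16a1, Slc19a1 and Slc1a5 do not overlap between any 2 groups.

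The counts of a substrate class are read beside the shares of all genes called higher and lower, which were 12.7% and 14.1% at the first step, 24.8% and 17.3% at the second and 31.8% and 29.7% over both. No class was tested against these shares. In the class of amino acids and peptides, 16 genes were measured (54 on the array). Of these, 3 rose and 2 fell in premalignant cells, and 7 rose and 1 fell from premalignant to malignant cells. From wild type to malignant cells 6 rose and 3 fell. The rises in the last 2 comparisons include the peptide and histidine carrier Slc15a3 and Slc17a9, which loads nucleotides into vesicles. Slc7a5, also called LAT1, exchanges glutamine for leucine and other large neutral amino acids, and works only when paired with the glycoprotein Slc3a2, the CD98 heavy chain. Its log2 intensity was 5.38, 5.41, 5.06 and 5.16 in the wild type arrays and 7.63, 7.79, 7.31, 7.26 and 7.31 in the premalignant ones. Among the lymphomas it ran from 8.44 over a median of 9.01 to 9.27. All 3 groups lay apart. The gene rose 4.61-fold at the first step (log2 change 2.21 ± 0.15 SE, adjusted p = 1.52e-05), 2.79-fold at the second (1.48 ± 0.14, adjusted p = 1.92e-07) and 12.9-fold over both (adjusted p = 8.6e-13).

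Slc3a2 did not follow the same course. It read 7.82, 7.82, 7.85 and 7.80 in wild type arrays and 7.68, 7.55, 6.92, 7.30 and 6.82 in premalignant arrays. Lymphomas ran from 7.56 over 7.93 to 8.17, around the wild type values. All premalignant values lay below all wild type values, a 1.48-fold fall (adjusted p = 0.046). This fall was lost (adjusted p = 0.0807 to 0.108) on leaving out any wild type replicate, or premalignant replicate 3, 4 or 5, and after spike centring its adjusted p was 0.74. The rise from premalignant to malignant cells was 1.59-fold (adjusted p = 0.000519), and lymphomas did not pass against wild type cells (log2 change 0.10 ± 0.11, adjusted p = 0.432). Slc7a5 was thus 12.9-fold above wild type in lymphomas, and the measured ratio of Slc3a2 was 1.07-fold.

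Slc7a6, another light chain that pairs with Slc3a2 and exchanges cationic for neutral amino acids, had log2 intensities of 4.86, 5.36, 4.81 and 4.91 in wild type and 5.87, 6.19, 5.77, 5.93 and 5.94 in premalignant arrays. It rose 1.94-fold at the first step (adjusted p = 0.00132) and 1.62-fold at the second (adjusted p = 0.0169). Here the lymphomas, at 5.80 to 7.37 with a median of 6.76, overlapped the premalignant arrays but not the wild type ones (3.14-fold, adjusted p = 1.66e-05). Its second probe set did not pass at the first step (log2 change 0.69, adjusted p = 0.206) and passed at the second (0.64, adjusted p = 0.035).

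Slc1a5, also called ASCT2, exchanges glutamine and other small neutral amino acids. It read 7.80, 8.23, 8.72 and 8.38 in wild type, 8.93, 8.90, 8.91, 8.99 and 9.01 in premalignant, and 9.22 to 9.80 (median 9.61) in malignant arrays. The groups were in that order with no overlap, and the folds were small, 1.59 at the first step (adjusted p = 0.0163) and 1.51 at the second (adjusted p = 0.000182). The first of these did not pass after spike centring (adjusted p = 0.0974). Its relative Slc1a4, an exchanger of alanine, serine and cysteine, lay near the filter level in all groups (means 4.09, 3.93 and 4.06) and was not called.

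The sodium-coupled glutamine and alanine carriers Slc38a1 and Slc38a2 were not called in any comparison. Slc38a1 had means of 7.45 ± 0.25, 6.97 ± 0.42 and 7.22 ± 0.29, and Slc38a2 of 8.39 ± 0.15, 8.31 ± 0.29 and 8.60 ± 0.23 in wild type, premalignant and malignant arrays (SD, n = 4, 5 and 13). The malignant minus wild type change of Slc38a2 was 0.21 ± 0.13 log2 units. Slc6a6, the taurine carrier, was called at the second step alone. It read 5.15, 5.65, 5.68 and 5.16 in wild type and 5.54, 5.08, 5.58, 5.51 and 5.48 in premalignant arrays, against 5.85 to 7.67 (median 6.49) in lymphomas. Every lymphoma was above every other array, and the rise from premalignant cells was 2.19-fold (adjusted p = 0.000702).

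Peptide and histidine carriers of the endolysosome went apart. Slc15a4, which serves Toll-like receptor signalling from that compartment, fell at both steps. Its values were 8.46, 7.85, 8.46 and 8.62 in wild type and 7.33, 7.88, 7.61, 7.69 and 7.54 in premalignant arrays, and 5.52 to 7.26 (median 6.17) in lymphomas. The premalignant array at 7.88 reached the lowest wild type array, and every lymphoma was below every premalignant array. The gene fell 1.67-fold at the first step (adjusted p = 0.0124), where it did not pass after spike centring (adjusted p = 0.499), and 2.46-fold at the second (adjusted p = 0.000203), for 4.12-fold in all (adjusted p = 2.78e-06).

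Its relative Slc15a3 was higher in lymphomas. It read 5.30, 4.99, 4.22 and 4.31 in wild type and 3.33, 4.80, 4.65, 4.19 and 4.18 in premalignant arrays. In lymphomas it spanned 3.63 (replicate 13) to 6.98 (replicate 1) with a median of 6.00, so that 1 lymphoma lay among the premalignant values. The rise from premalignant cells was 3.03-fold (adjusted p = 0.00246), and that from wild type cells 2.18-fold (adjusted p = 0.0255), the latter not passing without wild type replicate 3 or 4 (adjusted p = 0.0925 and 0.0837). Slc17a9, which loads nucleotides into vesicles, had a mean of 4.67 in premalignant arrays and values of 4.73 to 5.73 (median 5.02) in lymphomas. It was called higher in lymphomas than in premalignant cells by 1.31-fold (adjusted p = 0.0435), a call lost without premalignant replicate 2, 3, 4 or 5 (adjusted p = 0.0583 to 0.126). Slc66a1, the lysosomal exporter of cationic amino acids, fell by at least 1.44-fold from wild type to malignant cells (adjusted p = 0.000354), where no lymphoma exceeded the filter level. Slc66a2, of the same family, was 1.24-fold lower there (adjusted p = 0.0357), and this was not called without wild type replicate 1, 2 or 4 (adjusted p = 0.0607 to 0.123).

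Carriers of monocarboxylates and sugars differed in direction. Of 10 measured genes (30 on the array) 1 rose and 4 fell in premalignant cells, 3 rose and 0 fell from premalignant to malignant cells (limma; 0 fell at an unadjusted p under 0.05), and 3 rose and 3 fell from wild type to malignant cells. Slc16a1, or MCT1, moves lactate and pyruvate together with a proton. It read 6.01, 5.89, 5.40 and 5.88 in wild type and 8.25, 8.80, 8.83, 8.52 and 8.30 in premalignant arrays, and 9.28 to 10.49 (median 9.83) in lymphomas. No group overlapped another. Its folds were 6.71 at the first step (log2 change 2.75 ± 0.18 SE, adjusted p = 1.48e-05), 2.46 at the second (1.30 ± 0.19, adjusted p = 2.91e-05) and 16.5 over both (adjusted p = 2.3e-11), the last being the highest measured fold of any of the 78 genes in any comparison.

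The start of Slc16a1 was searched for the E-box CACGTG, a sequence that Myc and Max, among other factors of their class, can bind. It reads the same on both strands. RefSeq promoter windows of GRCm38.p6, from 250 bases before to 50 after each start, were at hand for 54 of the 78 genes. The motif lay in the windows of 10 of these genes (18.5%), beside 2187 of 27025 genes in the table (8.09%), a difference that was not tested. Some genes have several windows, and per window the shares were 12.3% of 81 and 7.15% of 32851. The genes in the table were not filtered by intensity, unlike the solute carriers. The 10 were Slc12a9, Slc16a1, Slc17a2, Slc20a1, Slc29a1, Slc30a5, Slc33a1, Slc35a5, Slc37a3 and Slc39a11. Of the 7 genes higher at both steps 4 had a window and 2 held the motif. Stretches upstream of the start are shown for the 3 of the 10 with the highest folds in lymphomas over wild type cells, from chr3:104638434-104638503 (plus strand), chr17:45595282-45595351 (minus strand) and chr2:129198568-129198772 (plus strand), 5′ to 3′ with the motif in capitals.
Slc16a1: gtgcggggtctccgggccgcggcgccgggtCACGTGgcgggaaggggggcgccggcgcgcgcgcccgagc
Slc29a1: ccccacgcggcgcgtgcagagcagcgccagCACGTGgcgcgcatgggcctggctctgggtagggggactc
Slc20a1: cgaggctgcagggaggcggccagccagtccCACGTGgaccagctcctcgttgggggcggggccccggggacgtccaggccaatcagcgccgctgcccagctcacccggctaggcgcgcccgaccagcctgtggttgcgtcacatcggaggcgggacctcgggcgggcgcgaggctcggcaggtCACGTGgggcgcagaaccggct
The copies begin 200 bases before the start in Slc16a1, 75 before it in Slc29a1, and 175 and 22 before it in Slc20a1. A match is a string of letters and shows no binding in these cells. Of the other 7 genes with the motif, Slc17a2, Slc35a5 and Slc39a11 were called in malignant against wild type cells alone, and Slc12a9, Slc30a5, Slc33a1 and Slc37a3 in no comparison. TGATGNAA, a motif of the amino acid response class searched on both strands, lay in 3 of the 54 genes (5.56%; Slc1a4, Slc50a1 and Slc7a7), beside 4.51% of all genes.

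Neither of the glucose carriers Slc2a1 and Slc2a3 rose at both steps as Slc16a1 did. Slc2a1, or GLUT1, read 7.61, 6.74, 7.45 and 7.67 in wild type and 5.67, 6.66, 6.69, 6.85 and 6.01 in premalignant arrays, and 5.29 to 6.55 (median 6.15) in lymphomas. Only wild type replicate 2, at 6.74, lay within the premalignant range, and all lymphomas were below all wild type arrays. The gene was 1.98-fold lower in premalignant cells (adjusted p = 0.0243), a call lost (adjusted p = 0.0513 to 0.0694) on leaving out any 1 of wild type replicates 1, 3 and 4 and premalignant replicate 5, or after spike centring (0.225). It was 2.44-fold lower in lymphomas than in wild type cells (adjusted p = 2.06e-05), as were its other 2 probe sets (log2 change -1.35 and -0.70), and the step from premalignant to malignant cells did not pass (-0.30 ± 0.20, adjusted p = 0.23).

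Slc2a3, or GLUT3, a carrier of high affinity for glucose, was called lower and then higher. It read 7.38, 7.92, 6.78 and 7.07 in wild type, 6.72, 6.79, 6.61, 6.48 and 6.25 in premalignant, and 7.40 to 8.44 (median 8.04) in malignant arrays. All lymphomas lay above all premalignant arrays (2.56-fold, adjusted p = 4.64e-06). The fall at the first step was 1.64-fold (adjusted p = 0.0349) and was lost (adjusted p = 0.0672 to 0.0838) on leaving out any 1 of wild type replicates 1 and 2 and premalignant replicates 3, 4 and 5. Its second probe set did not pass for the fall (log2 change -0.30, adjusted p = 0.268) and passed for the rise (0.79, adjusted p = 0.00318), and with the mean of probe sets the fall was lost (0.0584). Lymphomas were 1.56-fold above wild type cells (adjusted p = 0.0135), which was not called without wild type replicate 3 or 4 (0.0851 and 0.0527), nor in the second probe set (0.0539).

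Further genes of the class were called. Slc16a6, or MCT7, a carrier of ketone bodies, had means of 5.97 ± 0.28, 5.28 ± 0.50 and 6.64 ± 0.41 and rose 2.58-fold from premalignant to malignant cells (adjusted p = 6.44e-05). Its fall in premalignant cells did not pass (adjusted p = 0.0641) except without premalignant replicate 3 (0.0188). Slc50a1, a sugar carrier of the Golgi and plasma membrane, was 1.5-fold lower in premalignant cells (adjusted p = 0.0349), without overlap, a call lost (adjusted p = 0.0531 to 0.0834) when any 1 of wild type replicates 2 and 3 and premalignant replicates 1, 3 and 4 was left out. Slc37a2, an exchanger of sugar phosphate for phosphate in the endoplasmic reticulum, was at 3.90, 4.56, 4.19 and 4.35 in wild type arrays and below the filter level in all premalignant arrays, a fall of at least 1.19-fold (adjusted p = 0.0119).

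Carriers of nucleosides and nucleobases, 3 measured genes of 6 on the array, were all called at the first step. Slc29a1, or ENT1, lets nucleosides pass the plasma membrane in both directions and so serves nucleotide salvage. In wild type arrays it was at 2.99, 3.35, 4.04 and 3.63, near or below the filter level, and in premalignant arrays at 6.72, 5.44, 6.57, 6.08 and 5.54. In lymphomas it ran from 6.57 over 6.98 to 8.01. The premalignant arrays stood clear of wild type (at least 4.2-fold, adjusted p = 0.000285) and overlapped the lowest lymphomas (2.06-fold at the second step, adjusted p = 0.00153). Over both steps the rise was at least 8.64-fold (adjusted p = 3.39e-10).

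Slc43a3, an equilibrative carrier of nucleobases, read 4.32, 5.00, 3.87 and 3.72 in wild type and 5.07, 5.92, 5.57, 5.01 and 4.79 in premalignant arrays, and 5.06 to 7.58 (median 6.14) in lymphomas. Neighbouring groups overlapped, and lymphomas did not overlap wild type (4.03-fold, adjusted p = 6.8e-05). The first step was 2.07-fold (adjusted p = 0.0253) and was lost (adjusted p = 0.0521 to 0.0731) without any of wild type replicates 1, 3 and 4 and premalignant replicate 3 taken singly. The second was 1.95-fold (adjusted p = 0.0171) and did not pass without premalignant replicate 5 (0.0598). Slc29a3, or ENT3, exports nucleosides from lysosomes, and went the other way. It read 6.53, 7.02, 6.55 and 6.15 in wild type and 6.01, 6.11, 5.91, 5.76 and 5.45 in premalignant arrays, a 1.64-fold fall without overlap (adjusted p = 0.0216), a call lost when wild type replicate 2 (0.0534) or premalignant replicate 4 (0.0515) was left out. Lymphomas were 1.95-fold below wild type (adjusted p = 0.000135), again without overlap, but not after spike centring (0.144).

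Among carriers of vitamins and cofactors (4 measured of 12 on the array) 2 rose in premalignant cells. Slc19a1, the reduced folate carrier, brings in the cofactor of thymidine and purine synthesis. It read 4.74, 5.61, 4.66 and 3.94 in wild type and 6.80, 5.70, 6.51, 6.46 and 6.25 in premalignant arrays, against 7.11 to 9.09 (median 7.76) in lymphomas. No 2 groups overlapped, although wild type replicate 2 and premalignant replicate 2 lay close together. The gene rose 3.05-fold at the first step (adjusted p = 0.00427), 2.84-fold at the second (adjusted p = 5.9e-05) and 8.65-fold over both (adjusted p = 3.76e-08), and its second probe set was called higher in all 3 comparisons. Slc19a2, the thiamine carrier of the same family, was called higher in premalignant cells (adjusted p = 0.0206) with every array of both groups below the filter level, so that no fold is given. 4 of 13 lymphomas were above that level, with a highest value of 5.75. Slc23a2, the ascorbate carrier, was called lower in lymphomas against wild type cells by at least 1.05-fold.

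Of 11 measured genes in the class of ions and pH (45 on the array), 2 fell and 0 rose in premalignant cells (limma, and 0 rose at an unadjusted p under 0.05). From premalignant to malignant cells 3 rose, and from wild type to malignant cells 2 rose and 3 fell. The class also holds the urea carrier Slc14a1, which was not called. The sodium-phosphate carriers Slc20a1 and Slc20a2, which also serve as receptors of gammaretroviruses, were among those that rose at the second step. Slc20a1, whose promoter is shown above, read 6.20, 6.87, 6.25 and 6.51 in wild type and 6.70, 6.60, 6.48, 6.15 and 6.25 in premalignant arrays. In lymphomas it ran from 7.20 over 7.82 to 8.57, above every other array. The first step was -0.02 ± 0.18 log2 units and the second a 2.68-fold rise (adjusted p = 2.59e-05). A second probe set of the gene, near the filter level, did not pass (log2 change 0.31, adjusted p = 0.178). Slc20a2 had means of 4.03 ± 0.44, 4.13 ± 0.28 and 5.06 ± 0.54 and rose 1.9-fold at the second step (adjusted p = 0.00472), with overlap.

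Slc4a2, an exchanger of chloride and bicarbonate, read 6.29, 5.91, 6.12 and 5.46 in wild type, 5.82, 5.47, 4.86, 5.09 and 4.63 in premalignant, and 5.11 to 6.66 (median 5.92) in malignant arrays. It was 1.7-fold lower in premalignant than wild type cells (adjusted p = 0.0479), and 1.67-fold higher in malignant than premalignant cells (adjusted p = 0.00887), with overlap at both steps. The first call was lost (adjusted p = 0.0812 to 0.128) on leaving out any 1 of wild type replicates 1, 2 and 3 and premalignant replicates 3, 4 and 5. Slc26a2, a sulfate carrier, fell 1.58-fold in premalignant cells without overlap (5.10 to 5.60 against 4.33 to 4.95, adjusted p = 0.0152) and was not called at the second step (log2 change -0.03 ± 0.18).

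Slc4a1, the band 3 anion exchanger of red cells, followed erythroid markers across arrays. It read 5.82, 8.07, 3.79 and 3.83 in wild type and 4.44, 10.41, 3.53, 3.94 and 3.63 in premalignant arrays, and was below the filter level in all lymphomas. The erythroid marker Alas2 read 6.12 and 8.39 in wild type replicates 1 and 2 and 9.20 in premalignant replicate 2, and was at 2.15 or below on all other arrays. The 5 erythroid markers on the array summed to 41.56 to 857.8 in wild type, 32.79 to 1747 in premalignant and 28.42 to 103.8 in malignant arrays, and the probe set of Hba-a1 was below the filter level on all of them. The call of Slc4a1 as lower in lymphomas than wild type (at least 2.6-fold, adjusted p = 0.00218) moved with these markers, whose part in it was not tested.

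Metal carriers, 16 measured of 26 on the array, held 1 higher and 1 lower call at the first step. From premalignant to malignant cells 3 rose and 1 fell, and from wild type to malignant cells 4 rose and 4 fell. The zinc importer Slc39a6 (ZIP6) read 6.81, 6.48, 6.62 and 6.96 in wild type and 6.90, 7.30, 7.35, 6.94 and 7.03 in premalignant arrays, and 7.17 to 9.06 (median 8.04) in lymphomas. Lymphomas were above all wild type arrays (2.63-fold, adjusted p = 0.000229) and overlapped the premalignant ones (2.01-fold, adjusted p = 0.00278). Slc39a11 (ZIP11) rose 1.95-fold over both steps without overlap (4.24 ± 0.32 in wild type and 5.21 ± 0.28 in malignant arrays, adjusted p = 6.14e-05), and neither step alone passed (adjusted p = 0.0573 and 0.228). The first step passed when wild type replicate 1 (0.042) or premalignant replicate 3 (0.0249) was left out. Slc39a9 rose 1.4-fold at the second step (adjusted p = 0.0199), which did not pass without premalignant replicate 3, 4 or 5 (0.0511 to 0.09). Slc39a14 was called there with a mean of 4.02 ± 0.28 at the filter level, and not without premalignant replicate 2 or 3 (0.0583 and 0.0684). Slc39a1 fell 1.46-fold in premalignant cells without overlap (adjusted p = 0.0345), a call lost (0.0533 to 0.0961) on leaving out any 1 of wild type replicates 1, 2 and 3 and premalignant replicates 1, 3 and 5.

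The zinc exporters of the Slc30 family gave little. Of the 6 measured, Slc30a4 was called lower in lymphomas than in wild type cells by at least 1.79-fold (adjusted p = 0.00544) and Slc30a9 by 1.24-fold (adjusted p = 0.0212), the second not without wild type replicate 1 or 2 (0.0664 and 0.0803) and with the opposite sign after spike centring. Slc41a1, a magnesium carrier, was 1.84-fold lower in lymphomas than in wild type cells without overlap (4.53 ± 0.19 against 5.41 ± 0.12, adjusted p = 4.24e-06), but not after spike centring (0.143). It did not pass at the first step (adjusted p = 0.138) except without premalignant replicate 2 (0.00382).

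Of the iron carriers, the exporter fell in lymphomas. Slc40a1, or ferroportin, is the exporter of iron from cells and abundant in macrophages. It read 7.28, 7.75, 9.65 and 9.51 in wild type and 6.30, 8.60, 7.85, 8.57 and 8.32 in premalignant arrays, and 5.61 to 7.84 (median 6.83) in lymphomas. Of 9 macrophage markers, 8 were higher in wild type replicates 3 and 4 than in 1 and 2, among them Csf1r (9.90 and 9.71 against 8.16 and 8.63), and Lyz2 was lower there (5.45 and 6.89 against 7.86 and 7.49). Premalignant replicate 1 was lowest of its group in all 9. Among the lymphomas, Slc40a1 was highest in replicate 5 (7.84) and read 5.91 in replicate 3, with lower values in replicates 6, 8 and 9 (5.77, 5.61 and 5.63). Between replicates 5 and 3, Csf1r (6.55 and 8.25), Cd68, Lyz2, C1qa, C1qb and Vcam1 went the other way. Only Mrc1 (6.92 and 4.52) and Adgre1 (5.44 and 4.92) went the same way as Slc40a1, and Cd14 was below the filter level. Slc40a1 was 2.28-fold lower in malignant than premalignant cells (adjusted p = 0.0324), not passing without premalignant replicate 2, 3, 4 or 5 (0.0564 to 0.0967), and 3.52-fold lower than in wild type cells (adjusted p = 0.00398). Its second probe set was called lower in both (log2 change -2.36 and -2.65).

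Slc11a1, a phagosomal carrier of iron and manganese typical of macrophages, read 5.05, 5.44, 6.80 and 6.97 in wild type and 4.30, 6.37, 5.84, 6.54 and 6.44 in premalignant arrays, and 5.00 to 5.99 in lymphomas. It was not called, but was called lower in lymphomas against premalignant cells without premalignant replicate 1 (adjusted p = 0.00189) and against wild type cells without wild type replicate 1 or 2 (0.00771 and 0.0317). The 9 monocyte and macrophage markers summed to 1035 to 3217 in wild type, 524.6 to 2497 in premalignant and 1056 to 5343 in malignant arrays, with Cd14 below the filter level on all arrays. Csf1r read 8.16 to 9.90 in wild type, 7.27 to 9.16 in premalignant and 5.38 to 8.81 in malignant arrays, whereas Lyz2 read 5.45 to 7.86, 6.02 to 7.77 and 8.68 to 11.52. The part of these markers in the values of both iron carriers was not tested. Slc11a2, or DMT1, the importer of ferrous iron, was lowest in wild type replicates 3 and 4 (2.96 and 3.18 against 3.89 and 3.63). It was called higher in premalignant cells (at least 1.13-fold, adjusted p = 0.0351), a call lost (0.0538 to 0.0997) when any 1 of wild type replicates 3 and 4 and premalignant replicates 1, 2 and 3 was left out.

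**Figure D3:**
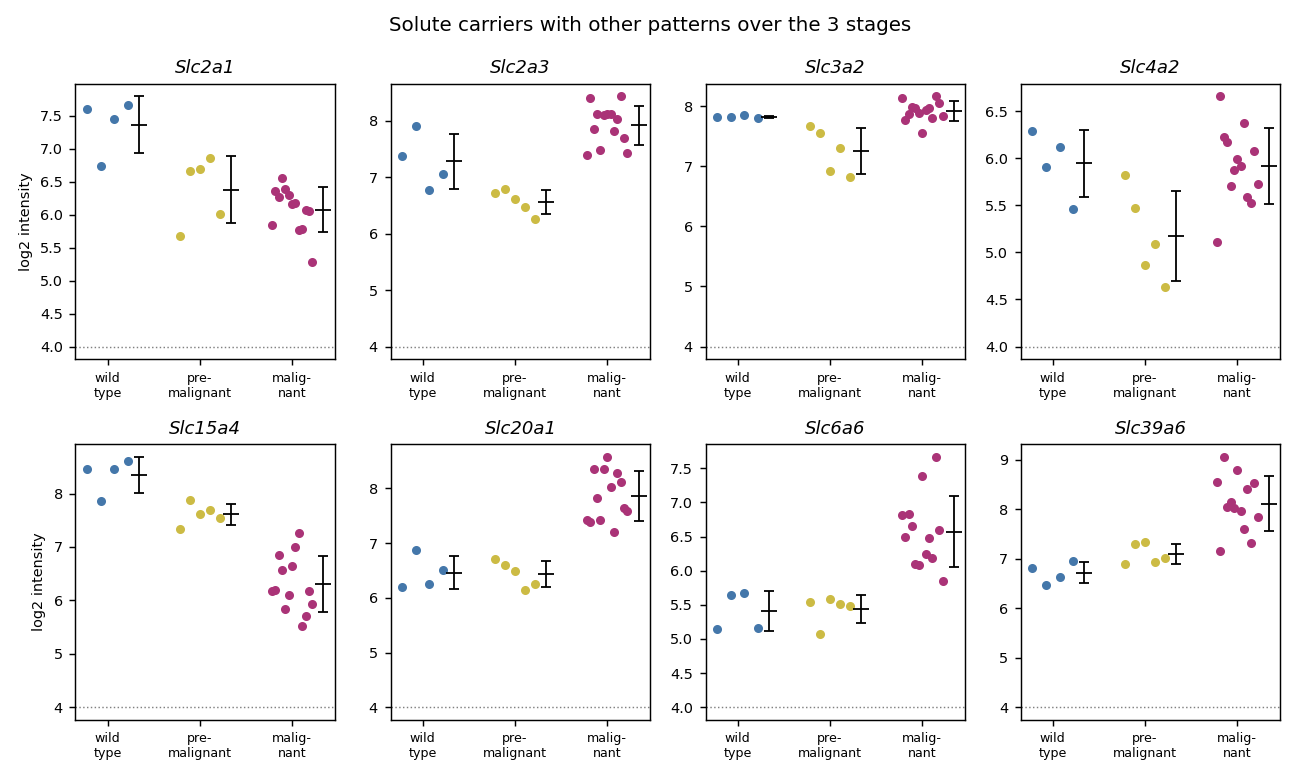
Log2 intensity (y axis) of 8 solute carriers with other courses over the 3 stages, in wild type (blue, n = 4), premalignant (yellow, n = 5) and malignant (purple, n = 13) arrays. Points are arrays, bars the mean and SD, and the dotted line the filter level of 4. Slc2a3, Slc3a2 and Slc4a2 are lowest in premalignant arrays, Slc2a1 and Slc15a4 go down from wild type, and Slc20a1, Slc6a6 and Slc39a6 are highest in lymphomas.

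Carriers of nucleotide sugars feed glycosylation in the Golgi and endoplasmic reticulum. None of 11 measured genes (18 on the array) was called in premalignant cells (limma; 1 was higher and 3 lower at an unadjusted p under 0.05), against 1 higher from premalignant to malignant cells and 1 higher and 4 lower from wild type to malignant cells. Slc35a4 was the gene that rose, by 1.37-fold at the second step (adjusted p = 0.0361; not without premalignant replicate 2, 3, 4 or 5, 0.0508 to 0.0989) and 1.76-fold over both (adjusted p = 0.00108). The falls over both steps were those of Slc35a5 (1.93-fold, adjusted p = 7.97e-05), the carrier of the sulfate donor PAPS Slc35b3 (1.63-fold, adjusted p = 0.00422), the UDP-galactose carrier Slc35a2 (1.53-fold, adjusted p = 0.00439) and Slc35c2 (1.41-fold, adjusted p = 0.00785). None of the 4 passed after spike centring (adjusted p = 0.055 to 0.799), and Slc35c2 was not called without wild type replicate 1 (0.0699).

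In the class of lipid, choline and organic ion carriers, 5 measured of 35 on the array, Slc10a3 fell. It read 5.77, 5.77, 5.62 and 5.14 in wild type and 5.34, 5.03, 5.23, 4.92 and 5.24 in premalignant arrays, and 3.17 to 5.12 (median 4.46) in lymphomas. Lymphomas lay below all wild type arrays (2.42-fold, adjusted p = 0.000232) and overlapped the premalignant ones (1.81-fold lower, adjusted p = 0.00419), and neither call held after spike centring (0.0617 and 0.116). It was called lower in premalignant cells without wild type replicate 4 (adjusted p = 0.0233). The organic anion carrier Slc22a6, near the filter level, was called lower in lymphomas than in wild type cells (at least 1.19-fold, adjusted p = 0.0144), not without wild type replicate 2 (0.0698) and with the opposite sign after spike centring.

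Among the 13 lymphomas, the spread of the solute carriers was like that of all genes. Their median SD was 0.35 log2 units beside 0.333, and 3 of 78 (3.85%) had an SD above 1, beside 3.87% of all genes. The 3 were Slc15a2, Slc44a1 and Slc14a1. Slc15a2, the peptide carrier PEPT2, was below the filter level in 6 lymphomas and reached 6.98 and 6.99 in replicates 11 and 13 (SD 1.66). It also varied before malignancy, with an SD of 1.46 in wild type arrays, where replicate 4 read 6.01 and the others 2.71 to 3.93, and 1.13 in premalignant arrays, where replicate 3 read 5.96. Slc44a1, a choline carrier, ran from 4.22 in replicate 10 to 7.34 in replicate 2 (SD 1.09), and Slc14a1, a urea carrier, from 2.76 in replicate 5 to 6.54 in replicate 7 (SD 1.08).

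Other genes followed by spread. Slc12a2, the sodium-potassium-chloride cotransporter, was at 3.14 in replicate 5 and 4.78 to 6.54 in the other 12 (SD 0.878). Slc19a2 exceeded the filter level in replicates 1, 5, 6 and 8, at 4.47, 4.24, 4.16 and 5.75, and lay near 3.1 in most others. Slc7a7, a light chain for cationic amino acids found in macrophages, was highest in replicates 3, 6 and 7 (5.51, 5.81 and 4.92), the lymphomas highest in the macrophage marker Lyz2 (11.52, 11.33 and 11.52) and lowest in another, Mrc1 (4.52, 3.90 and 4.14). The part of these markers in it was not tested. Slc11a2 ran from 2.81 to 5.10 (SD 0.747) and Slc50a1 from 4.76 in replicate 1 to 7.59 in replicate 11 (SD 0.715).

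**Figure D4:**
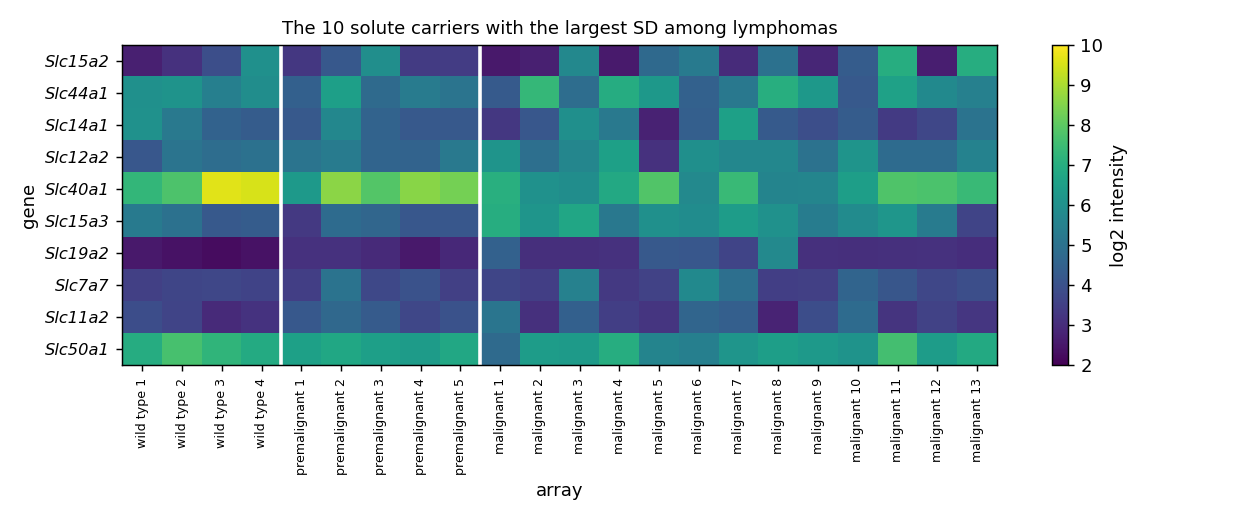
Log2 intensity (colour scale) of the 10 solute carriers with the largest SD among the 13 lymphomas (rows) on each of the 22 arrays (columns), with white lines between wild type, premalignant and malignant arrays. Slc15a2 is high in lymphomas 11 and 13 and in single wild type and premalignant arrays, and Slc40a1 is highest in wild type replicates 3 and 4.

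Whether carriers varied together among lymphomas was asked for 8 pairs, with two-sided permutation tests of 100000 resamples and adjustment over the 8. Slc7a5 and its partner Slc3a2 did (Pearson r = 0.842, permutation p = 0.00011, adjusted p = 0.00088; Spearman rho = 0.885, adjusted permutation p = 0.00104; n = 13). Without lymphomas 7 and 13, the farthest from the median of Slc7a5, r was 0.804 (adjusted permutation p = 0.0231), and with the beta-actin 3′ to 5′ difference taken out it was 0.823 (adjusted p = 0.0052). The level of Slc3a2 in these lymphomas spanned 7.56 to 8.17, and lymphoma 7 was lowest in both genes. Slc7a5 and Slc1a5 did not pass (r = 0.425, adjusted permutation p = 0.236; rho = 0.346), and neither did Slc16a1 and Slc2a1 (r = -0.348, adjusted permutation p = 0.329; rho = -0.286).

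Myc read 9.59 on average in lymphomas and 9.97 in premalignant arrays, against 7.04 in wild type arrays (7.59-fold at the first step, adjusted p = 1.45e-05; not called at the second, adjusted p = 0.255). Among lymphomas it correlated with Slc7a5 (r = 0.656, permutation p = 0.0149, adjusted p = 0.0398; rho = 0.731, adjusted permutation p = 0.025). With the beta-actin difference taken out r was 0.74 (adjusted permutation p = 0.0144). Without lymphomas 11 and 13 it was 0.492 (adjusted permutation p = 0.335), so that the call of r, though not its sign, rests on those samples. Myc also correlated with Slc19a1 (r = 0.684, adjusted permutation p = 0.0398; partial r = 0.702, adjusted p = 0.0183), but its rho did not pass (0.451, adjusted permutation p = 0.25), and without the same 2 lymphomas r was 0.20 (adjusted permutation p = 0.891). Myc with Slc3a2 (r = 0.579, adjusted permutation p = 0.0756; rho = 0.588), Slc16a1 (r = 0.00609, adjusted permutation p = 0.984; rho = 0.0934) and Slc2a1 (r = 0.224, adjusted permutation p = 0.53; rho = -0.0275) did not pass.

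**Figure D5:**
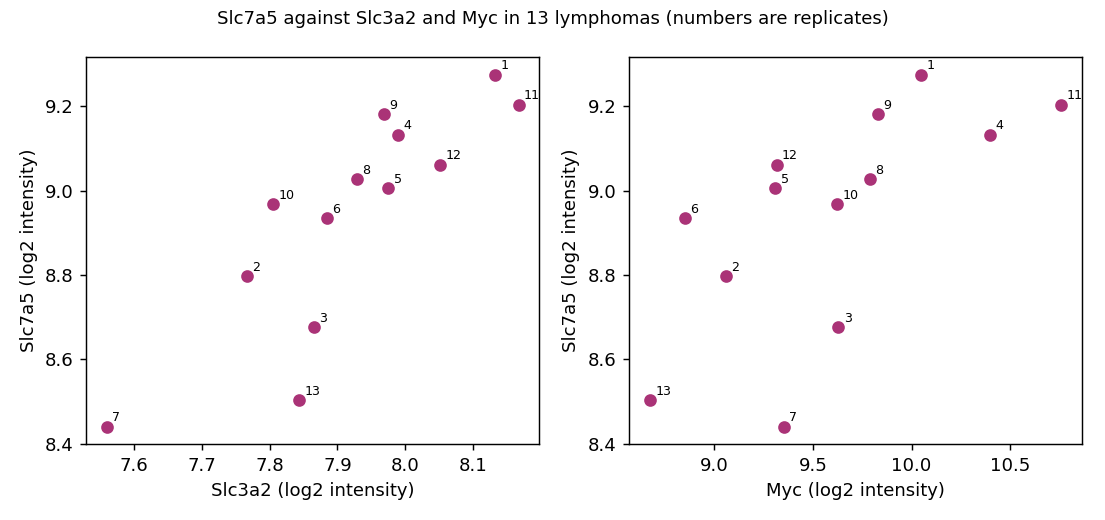
Log2 intensity of Slc7a5 (y axes) against that of Slc3a2 (left) and Myc (right) in the 13 lymphomas, each point a lymphoma with its replicate number. Slc7a5 rises with Slc3a2 (r = 0.842), and its relation with Myc (r = 0.656) is 0.492 without lymphomas 11 and 13.

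Genes that work beside the carriers were counted from lists, which are read beside the same shares of all genes (12.7% higher and 14.1% lower, 24.8% and 17.3%, and 31.8% and 29.7% in the 3 comparisons) and were not tested against them. Of 20 tested genes of the amino acid response and nutrient sensing, 5 rose and 5 fell in premalignant cells, 6 rose and 3 fell from premalignant to malignant cells, and 7 rose and 7 fell over both. The serine synthesis enzyme Phgdh (2.57-fold and 1.62-fold) and the mitochondrial serine hydroxymethyltransferase Shmt2 (2.79-fold and 2.32-fold) rose at both steps, while Rraga, a GTPase that tethers mTORC1 to the lysosome, was 2.39-fold lower in malignant than premalignant cells. Of 9 iron handling genes 3, 1 and 2 rose and 0, 2 and 3 fell in the 3 comparisons, and the transferrin receptor Tfrc rose 2.18-fold and 2.95-fold at the 2 steps while the exporter Slc40a1 did not rise. Of 10 P-type pumps 2, 2 and 3 rose and 2, 3 and 4 fell, with the Golgi calcium pump Atp2c1 lower by 1.45-fold and 2.12-fold. Of 16 ABC transporters 2, 4 and 7 rose and 4, 1 and 6 fell. The cholesterol exporter Abca1 was 2.97-fold lower in premalignant cells. None of the iron handling genes was lower at the first step in limma, also at an unadjusted p under 0.05.

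17 of the 78 genes had more than 1 passing probe set, and none of them had probe sets called in opposite directions in any comparison. All probe sets of a gene had the same call for 12, 11 and 12 of the 17 in the 3 comparisons. Slc39a6 was among those that differed, with a second probe set called higher at the first step (log2 change 0.70, adjusted p = 0.0384) and not at the second (0.69, adjusted p = 0.0703). With a mean over probe sets Slc39a6 passed at the first step (adjusted p = 0.0307).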

How the data were processed

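Per the submitters' processing notes, the authors made the deposited intensities with GCRMA, which corrects background, normalises arrays and summarises probe sets; no source used here gives its version or says whether all 22 arrays were processed together, which bears on every comparison. The deposited values were linear intensities and log2 was taken here. The platform's annotation gave 1 symbol for 20380 of 22690 probe sets (89.8%). A gene was its passing probe set with the highest mean, and 6437 genes were tested. Models (limma 3.58.1, lmFit and eBayes, two-sided; R 4.3.3, statmod 1.5.0) took only the arrays of the 2 groups compared, with p-values adjusted by Benjamini-Hochberg over all genes. Named genes were, per comparison, the 10 largest called rises and falls with no more than 1 array in the other group's range, 3 or fewer called genes per substrate class and direction, the 10 largest SDs among lymphomas, genes called oppositely at the 2 steps, a set of 23 well-known carriers, and up to 3 examples per partner list. Marker lists were T cells, B cells, erythroid cells, macrophages, neutrophils, stroma and epithelium. Genes and lists were chosen with earlier results of these data known. Slc17a9, Slc30a9, Slc35c2, Slc39a3 and Slc46a3, and the genes outside the filter, were named after their values were seen. Promoter windows (250 bases before to 50 after the start) are from RefSeq, GRCm38.p6, and 54 of the 78 genes matched. Fits were tested on simulated data. Alternatives were other filters, probe set means, 2 centrings, a pseudocount of 16, 1 fit over 3 groups, array weights, a replicate block, a fold minimum and leaving out single arrays.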

Additional observations from a re-analysis of the deposited data

Results flagged for a closer look

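In 102 groups of 4 or 5 arrays of the named carriers, 7 held an array far from the others by Dixon's test, where chance gives about 1 in 20. Premalignant replicate 2 was the array in 5 of them, with Slc4a1 at 10.41 (next 4.44), Slc14a1 at 5.70 (next 4.55), Slc41a1 at 5.77 (next 4.85), Slc66a2 at 5.31 (next 4.76) and Slc6a6 at 5.08, the only one of the 5 that was low (next 5.48). The same array had the highest sum of erythroid markers, 1747, beside 32.79 to 857.8 in the other wild type and premalignant arrays. It was also highest of the premalignant arrays in macrophage (2497), neutrophil (917.7), T cell (66.44) and epithelial (69.63) sums, but not in B cell or stromal ones. Whether RNA of red cells or of other cell types takes part in these values was not tested. Slc30a4 was high in wild type replicate 2 (5.17, next 4.76) and Slc38a2 low in premalignant replicate 1 (7.80, next 8.34).

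Outside the filter, 6 carriers exceeded log2 4 in a single lymphoma alone, and 3 of them were there at least 1 log2 unit above every wild type and premalignant array. Slc16a11 read 5.07 in lymphoma 13 (next array 2.62), Slc12a3, a sodium-chloride cotransporter, 4.89 in lymphoma 1 (next 3.36) and Slc12a7, a potassium-chloride cotransporter, 4.52 in lymphoma 6 (next 3.88). The other 3 were Slc22a26 (4.34 in lymphoma 13, next 3.82), Slc39a8 (4.28 in lymphoma 11, next 3.34) and Slc22a12 (4.15 in lymphoma 1, next 3.96).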

How the results depend on the processing

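Outside a required fold, 5 of 9 rises in premalignant cells passed under every alternative that gave a value. So did 14 of 20 from premalignant to malignant and 15 of 20 from wild type to malignant cells. Of the falls, 0 of 10, 1 of 3 and 3 of 21 did. How many of all genes did so was not counted, so that this contrast is not read as a trait of the solute carriers. A fold of at least 2 left 5 higher and 0 lower in premalignant cells, beside 5.47% and 4.58% of all genes. It left 10 higher in malignant against premalignant cells, beside 5.73%, and 6 lower in malignant against wild type cells, beside 14.7%. Spike centring left 0, 1 and 4 lower genes in the 3 comparisons, beside 1.63%, 8.73% and 12.2% of all genes. Without it these shares of all genes were 14.1%, 17.3% and 29.7%. Spike centring also turned Slc22a6 (0.072), Slc23a2 (0.11), Slc30a9 (0.082) and Slc66a2 (0.081) to positive log2 changes in malignant against wild type cells. Without the filter 69 and 124 of 229 solute carriers were lower in lymphomas than in premalignant and wild type cells. These shares were above the 26.5% and 46.8% of all genes then lower, a difference that was not tested. A filter at log2 5 left 13 of 57 lower against wild type, beside 29.4% of all genes. Means of probe sets and median centring each gave 6 lower from premalignant to malignant cells, beside 19.1% of all genes. Leaving out single arrays gave 7 to 9 higher and 5 to 12 lower in premalignant cells. The shares of all genes were then 9.54% to 13.9% and 10.5% to 15.2%. From premalignant to malignant cells it gave 16 to 20 higher and 3 to 7 lower, beside 18.9% to 24.9% and 15% to 16.7%. From wild type to malignant cells it gave 17 to 20 higher and 18 to 21 lower, beside 28.1% to 30% and 26.2% to 27.7%. Leaving out wild type replicate 2 and premalignant replicate 1, chosen after seeing the data, gave 7 lower from premalignant to malignant cells (16.7% of all genes). The causes were not tested where no change in the number of genes or arrays is given.

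The labels do not say whether arrays of the same replicate number are paired. Correlations of same-numbered deviations ran from -0.125 to 0.311 and cannot settle it. The highest were 0.311 and 0.249, for replicates 3 and 4 of premalignant against wild type cells. With the replicate number as a block, on arrays with shared numbers, 8 solute carriers were higher and 3 lower in premalignant cells. From premalignant to malignant cells 16 were higher and 2 lower, and from wild type to malignant cells 18 and 10. The shares of all genes were 11.9% and 10.1%, 15.1% and 10.9%, and 24.7% and 20.4%, also below those of the main fit. Among pairs, Myc with Slc3a2 passed with the beta-actin difference taken out (partial r = 0.633, adjusted permutation p = 0.0413).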
